A study of Mus musculus with 2 samples.

Results

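Transcription factors grouped here under the urogenital mesenchyme were described in cultured mouse urogenital sinus mesenchyme (UGM) cells, with and without sex steroids. The factors are the GATA factors Gata4 and Gata6, the T-box factors Tbx18 and Tbx3, the Runt factors Runx1 and Runx2, the zinc finger E-box repressors Zeb1 and Zeb2, the odd-skipped factor Osr1 and the basic helix-loop-helix factor Tcf21. They were chosen by name. Probe sets annotated to 1 of these symbols alone were taken, and the probe set with the highest mean log2 intensity over the 2 arrays was used as the level of the gene. Of the 10 factors, 9 had such a probe set, out of 18193 genes named on the array, and the level of Runx2 is not analysed here. The 9 genes had 30 probe sets.

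Both cultures were UGM cells of male C57BL/6 mice at day 16, kept for 72 h in RPMI medium containing 5% serum stripped of steroids with charcoal and 5 µg/ml Plasmocin, an antibiotic. The untreated culture received nothing else, and the treated culture received testosterone (12 nM) together with estradiol-17 beta (120 pM), written T+E2. Each group is 1 array of 1 culture, so the differences here have no replicate error beside them and no p-value is given; the number of arrays limits their precision. The titles give 24 h in place of 72 h, and the descriptions call the cells confluent in the untreated group and near confluent in the treated group, whereas the growth protocol gives 80% for both. If the descriptions hold, density and hormone cannot be told apart. Nothing in the labels says how many animals gave the cells.

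These factors are sequence-specific DNA-binding proteins of fetal mesoderm. Gata4 and Gata6 bind GATA motifs and act in the heart, gut and gonad. Tbx18 marks the mesenchyme around the ureter and other urogenital ducts, and Osr1 is an early marker of the intermediate mesoderm. The Runt factors bind DNA with the partner protein encoded by Cbfb, and Zeb1 and Zeb2 repress epithelial genes such as Cdh1 through E-box motifs.

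The cells carried general markers of fibroblasts and mesenchyme, which are not particular to the urogenital sinus. Of 12 fibroblast and mesenchyme markers, 11 reached the floor on both arrays (5 on the log2 scale, an intensity of 32, under which GCRMA values are mostly background), and Thy1 did not. Of 18 epithelial markers 3 did (Cdh1, Trp63 and Esrp2), and of 10 endothelial markers 1 did (Tek). Of 9 leukocyte markers 2 did, of 7 neural markers 2 and of 8 smooth muscle markers 4. Because some of the factors are also known from the gonad, the kidney and the heart, markers of these organs were examined as well. Of 11 gonadal somatic markers 1 reached the floor (Inhbb), of 8 nephric markers 3 did, and of 10 cardiac and skeletal muscle markers 0 did. Some markers differed between the arrays along with the factors. Of the 11 measured fibroblast and mesenchyme markers 8 were higher with T+E2, with a median log2 difference of 0.16. Lum, a fibroblast proteoglycan gene, went the other way, from 196 untreated to 55.9 with T+E2. The leukocyte marker Lyz2 went from 1065 to 369. Among smooth muscle markers Tagln went from 3772 to 1403, and Lmod1 the other way, from 411 to 1294. The nephric marker Cited1 went from 88.8 to 35.9, whereas the nephric markers Six2 and Emx2 went from 38.7 to 62.8 and from 161 to 175. The neural adhesion gene Ncam1 went from 1214 to 2326, and the neural marker S100b the other way, from 135 to 121. The leukocyte markers Ptprc, Adgre1 and Cd3e lay below the floor on both arrays, whereas Cd14 was measured, at 70.1 untreated and 78.7 with T+E2. The smooth muscle marker Myh11 also lay below the floor on both. Acta2 was measured at 25121 untreated and 27462 with T+E2, and Smtn at 146 and 277. The part of other cell types in the differences of the factors was not tested.

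Of the 9 factors with a probe set, 8 were measured, meaning that they reached the floor on at least 1 array, and Tcf21 was not. With T+E2, Gata4, Gata6, Runx1, Tbx18 and Zeb2 (5 of the 8) were higher by 2-fold or more, the other 3 (Tbx3, Osr1 and Zeb1) stayed within 2-fold, and 0 were lower by that much. Over all 10267 measured genes, 4.96% were at least 2-fold higher and 4.01% at least 2-fold lower. All 8 measured factors lay above 0, as did 55.8% of all measured genes. The factors were picked with earlier results of these arrays known, so these shares are a description. Their median difference, T+E2 minus untreated, was 1.09 on the log2 scale, against 0.07 over all measured genes, which had an SD of 0.62. The 18 hybridization spike probe sets, which are added in equal amounts to both samples, differed by -0.25 to 0.09.

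**Figure D1:**
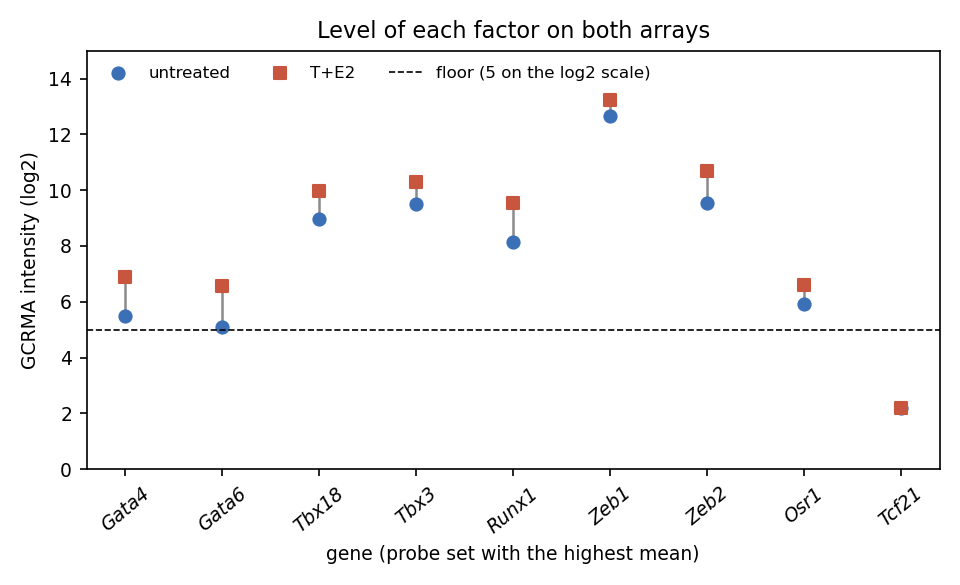
GCRMA intensity on the log2 scale (y axis) of the 9 factors with a probe set (x axis), untreated (blue circles) and with T+E2 (red squares), 1 array each. The 8 measured factors stand higher with T+E2, and both Tcf21 values lie at about 2.2, under the dashed floor of 5.

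The GATA factors were dim in untreated cells and higher with T+E2. Gata4 had an intensity of 44.9 untreated and 117 with T+E2 (2.61-fold, log2 difference 1.38). Gata6 stood at 33.9 untreated and 94.4 with T+E2 (2.79-fold, log2 difference 1.48), the largest difference of the 8. Both untreated values were close to the floor of 32. With a floor of 6 in place of 5 the differences came to 0.87 for Gata4 and 0.56 for Gata6, and with 32 added to every intensity to 0.95 and 0.94, all under 2-fold. Each value rests on a single probe set, since the second Gata4 probe set and the other 2 of Gata6 lay below the floor on both arrays.

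Other GATA proteins and their FOG cofactors were all on the same side by smaller amounts. Of 7 such genes 5 were measured, 0 were at least 2-fold higher or lower, and the median was 0.45. Gata3, a GATA factor of the mesonephric duct and of T cells, had the largest difference, at 801 untreated and 1388 with T+E2 (0.79 on the log2 scale). Zfpm2, which encodes the FOG cofactor that binds Gata4, went from 993 to 1421 (0.52). Gata2 stood at 0.45. Gata1 and Gata5, of the blood and gut lineages, lay below the floor on both arrays.

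Tbx18 and Tbx3 were clear of the floor with and without hormone. Tbx18 had an intensity of 496 untreated and 1005 with T+E2 (2.02-fold, log2 difference 1.02), just past 2-fold. Its second probe set went from 88.6 to 127 (0.52). With the mean of the measured probe sets Tbx18 stood at 0.77, and with all differences centred on the median gene at 0.95, under 2-fold in both cases.

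Tbx3, a transcriptional repressor active in limb, mammary and genital development, stood at 730 untreated and 1264 with T+E2 (1.73-fold, log2 difference 0.79). A second measured probe set went from 409 to 825 (1.01), and its other 3 probe sets lay below the floor. The measured probe sets of Tbx18 and of Tbx3 were therefore all higher with T+E2.

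Of 15 other T-box genes 13 were on the array and 4 were measured, all above 0, with a median of 0.57. Tbx20, known from the heart, was the member of this list at least 2-fold higher, at 1263 untreated and 3336 with T+E2 (1.40), with both measured probe sets above 0. No T-box gene of the list was at least 2-fold lower. Tbx15, Tbx5 and Mga stood at 0.69, 0.45 and 0.44. Tbx1, Tbx2 and Tbx4 lay below the floor on both arrays.

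**Figure D2:**
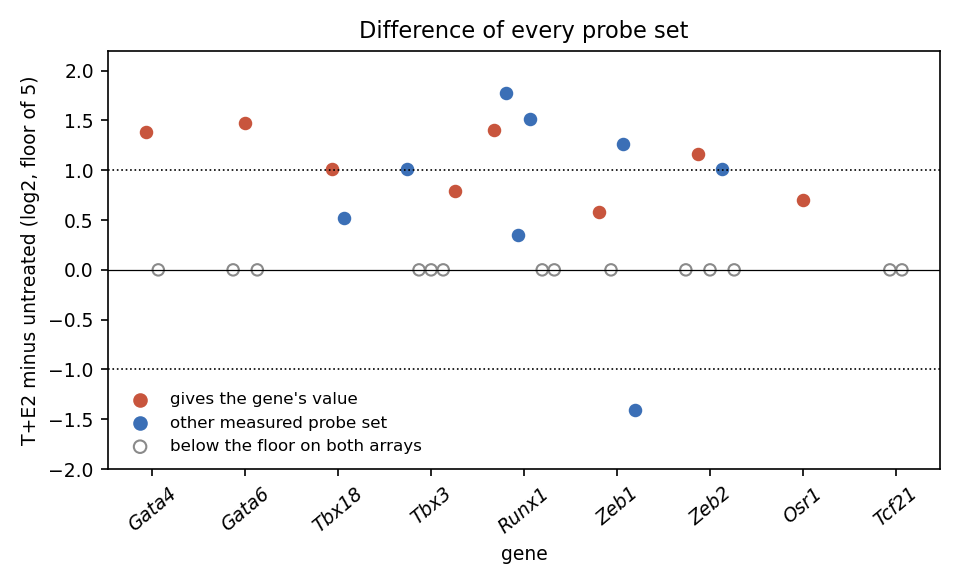
T+E2 minus untreated on the log2 scale with a floor of 5 (y axis) for all 30 probe sets of the 9 factors (x axis). Of the 16 measured probe sets, 15 lie above 0, and 1 of Zeb1 lies at -1.41; the open circles are the 14 probe sets below the floor on both arrays.

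Runx1, the factor of definitive blood formation that is also active in mesenchyme, had the most probe sets, and all 4 that were measured were higher with T+E2. Its brightest probe set stood at 283 untreated and 751 with T+E2 (2.66-fold, log2 difference 1.41). Others went from 136 to 463 (1.77) and from 145 to 413 (1.52). Another was below the floor in untreated cells (18.5) and at 40.8 with T+E2, a difference of at least 0.35. The other 2 lay below the floor on both arrays.

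Genes that work with the Runt factors differed in both directions. Of 9 such genes 8 were measured, with a median of 0.68. At 2-fold or more, 3 were higher and 1 was lower, and 4 stayed within 2-fold. Runx3, which completes the Runt family, was at 17.3 in untreated cells, below the floor, and at 103 with T+E2. That makes it at least 3.23-fold higher, a bound that depends on the floor and rests on 1 measured probe set of 2. Tle3 went from 1269 to 3148 (1.31) and Tle4 from 550 to 1357 (1.30), while their relative Tle2 went the other way, from 1368 to 390 (-1.81). All 3 encode Groucho-type corepressors that Runt factors recruit. Cbfb, the shared DNA-binding partner, differed by -0.01.

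Of 8 skeletal genes labelled here as targets of Runx2, the factor of bone formation, 6 were on the array and 1 was measured. That gene was Dlx5, a homeobox gene, at 342 untreated and 553 with T+E2 (0.69). Whether Dlx5 acts as a target of Runx2 in these cells was not tested. Sp7, Ibsp, Alpl, Mmp13 and Col10a1 lay below the floor on both arrays.

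Start sites of the Runt genes are shown because the 2 genes that were measured, Runx1 and Runx3, were both at least 2-fold higher with the floor of 5. Each sequence below runs from 250 bases before to 50 bases after a RefSeq transcript start (RefSeq, build GRCm38.p6), 5′ to 3′ on the strand of the gene. Of the 10 factors, windows of 5 were taken (Runx1, Runx2, Tbx18, Tcf21 and Zeb2), with 9 start sites in all. The other factors, Gata6 and Zeb1 included, are not covered by these counts, whether or not they have entries. Both strands were searched for 7 motifs. These were AGATAA for GATA factors, TGTGGT for Runt factors, CAGGTG for ZEB proteins, AGGTGT for T-box factors, AGAACA for steroid receptors, TGANTCA for AP-1 and TATAAA for the basal machinery; CAGGTG and AGGTGT can overlap. Capitals mark the matches. Of the 9 windows 5 held none, that of Tbx18 included, and the Tcf21 window held AGATAA, which 11.2% of all windows hold. The first Runx1 start, upstream, lies in chr16:92826025-92826324 on the minus strand, and the second, downstream, in chr16:92697280-92697579. The Runx2 start lies in chr17:44814578-44814877 on the minus strand, and the upstream Runx3 start in chr4:135120395-135120694 on the plus strand.
Runx1 upstream start: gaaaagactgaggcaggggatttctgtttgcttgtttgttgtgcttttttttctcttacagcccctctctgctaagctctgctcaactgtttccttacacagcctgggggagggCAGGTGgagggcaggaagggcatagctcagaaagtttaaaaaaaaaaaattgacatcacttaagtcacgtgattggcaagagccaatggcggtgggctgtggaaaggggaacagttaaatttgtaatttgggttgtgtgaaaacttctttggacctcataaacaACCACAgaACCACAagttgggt
Runx1 downstream start: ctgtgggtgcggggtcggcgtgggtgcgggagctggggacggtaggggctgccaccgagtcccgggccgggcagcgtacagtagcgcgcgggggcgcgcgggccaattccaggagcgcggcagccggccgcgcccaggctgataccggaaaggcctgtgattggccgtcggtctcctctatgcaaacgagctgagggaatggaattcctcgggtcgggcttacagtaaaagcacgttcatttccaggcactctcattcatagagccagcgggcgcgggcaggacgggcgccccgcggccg
Runx2 start: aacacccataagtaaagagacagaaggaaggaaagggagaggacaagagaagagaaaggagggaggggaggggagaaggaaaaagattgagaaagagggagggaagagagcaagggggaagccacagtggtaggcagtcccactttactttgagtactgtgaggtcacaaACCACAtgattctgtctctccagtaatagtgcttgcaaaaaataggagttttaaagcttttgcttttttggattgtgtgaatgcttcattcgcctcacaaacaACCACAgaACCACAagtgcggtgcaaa
Runx3 upstream start: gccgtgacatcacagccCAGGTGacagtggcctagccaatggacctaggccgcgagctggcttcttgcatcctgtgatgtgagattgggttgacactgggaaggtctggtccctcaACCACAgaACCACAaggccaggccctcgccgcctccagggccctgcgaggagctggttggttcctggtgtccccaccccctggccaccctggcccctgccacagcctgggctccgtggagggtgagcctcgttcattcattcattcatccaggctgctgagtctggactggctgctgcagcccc

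The upstream windows of Runx1 and Runx3 and the window of Runx2 each held a pair of RUNX motifs 2 bases apart, on the strand opposite to TGTGGT. The downstream Runx3 window, which is not shown, held none of the 7 motifs. The longest run of bases shared by the 3 was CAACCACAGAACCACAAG, 18 bases long. The pair lay 28 to 41 bases after the start base in Runx1 and 23 to 36 bases after it in Runx2. In Runx3 it lay before the start, from -134 to -121. Such a pair, with any 2 bases between and on either strand, was found in 7 of 32851 RefSeq start windows of this length (0.0213%), 3 of them these, whereas a single TGTGGT was found in 16.8%. The 3 genes are paralogs, so their windows are not independent of each other. The pair was not among the 7 motifs, and its spacing is that of these windows, so its share is a description only.

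The 2 Runx1 starts differ in composition. The upstream window holds 45.0% G and C with 2 CpG dinucleotides, and the downstream window 69.0% with 35, against medians of 52.7% and 7 over all windows. The downstream window held none of the 7 motifs. A match describes letters only, and the arrays do not tell which start was used.

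Zeb2, a repressor of epithelial genes that also binds Smad proteins, was higher with T+E2. Its brightest probe set stood at 739 untreated and 1650 with T+E2 (2.23-fold, log2 difference 1.16), and a second went from 168 to 339 (1.02). The other 3 probe sets lay below the floor on both arrays. When all 5 probe sets were averaged, including those near background, Zeb2 stood at 0.52.

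The most downstream of 4 Zeb2 starts is shown because it was the 1 start window of that gene with a match to any of the 7 motifs. It lies in chr2:45110228-45110527 on the minus strand and held 2 matches to TGANTCA, in capitals. At least 1 such match was found in 7.81% of all windows and at least 2 in 0.46%. The count of 2 is that of this window, so the latter share is a description only.
Zeb2 most downstream start: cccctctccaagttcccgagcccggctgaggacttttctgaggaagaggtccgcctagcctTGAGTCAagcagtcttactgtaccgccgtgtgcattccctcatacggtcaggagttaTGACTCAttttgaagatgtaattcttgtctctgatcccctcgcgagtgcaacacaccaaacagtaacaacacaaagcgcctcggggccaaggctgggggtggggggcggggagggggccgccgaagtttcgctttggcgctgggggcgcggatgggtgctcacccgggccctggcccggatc

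Zeb1 did not give a single direction. Its brightest probe set, 1418926_at, stood at 6467 untreated and 9650 with T+E2 (1.49-fold, log2 difference 0.58). A second, 1443005_at, went from 62.4 to 150 (1.26). The third, 1446127_at, went the other way, from 85.1 in untreated cells to 12.2 with T+E2, below the floor, which makes it at least 2.66-fold lower. With the floor set for each of the 3 measured probe sets and the mean then taken, Zeb1 stood at 0.14. With the mean taken before any floor it stood at -0.32, a value that rests on the intensity of 12.2, below the floor. Among 4537 genes with at least 2 measured probe sets, 27 (0.60%) had 1 at least 2-fold higher and another at least 2-fold lower, and Zeb1 was among these.

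Most epithelial genes that ZEB proteins are known to repress were below the floor on both arrays. Of 15 such genes 3 were measured, all above 0. Cdh1, which encodes E-cadherin, stood at 41.4 in untreated cells, near the floor, and at 190 with T+E2 (4.59-fold). Ocln, which encodes the tight junction protein occludin, reached the floor with T+E2 and stood at least 0.94 higher. The splicing factor gene Esrp2 went from 11.89 to 12.52 on the log2 scale (0.64), with 1 of its 2 probe sets measured. Epcam, Esrp1, Grhl2, Cldn3, Cldn4 and Cldn7 lay below the floor on both arrays. The summed intensity of the 18 epithelial markers was 4146 untreated and 6499 with T+E2, of which Esrp2 alone gave 3782 and 5889, and Krt5, Krt8, Krt14 and Krt18 were below the floor on both. The part of other cells in the Cdh1 difference was not tested, and in a bulk culture more cells of a type and more RNA per cell cannot be told apart.

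Other factors linked to the mesenchymal state differed little. Of 9 ZEB corepressors and epithelial-mesenchymal transition factors 8 were measured, 0 were at least 2-fold higher or lower, and the median was 0.05. Snai2, Twist1, Twist2 and Prrx1 differed by 0.02, 0.08, 0.01 and 0.02. The largest differences were those of the forkhead gene Foxc2, from 215 to 332 (0.62), and of Snai1, from 236 to 300 (0.35).

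Osr1 was dim but measured on both arrays, at 60.4 untreated and 97.9 with T+E2 (1.62-fold, log2 difference 0.70), with its only probe set. Its relative Osr2 stood at 8.18 and 8.24 on the log2 scale, a difference of 0.06. Tcf21, a factor of the fetal kidney and lung mesenchyme, lay below the floor with both probe sets on both arrays, at 4.51 untreated and 4.57 with T+E2 for the brighter of them, so no difference is given. Among Osr2 and the basic helix-loop-helix genes around Tcf21, 5 of 9 were measured, 0 were at least 2-fold higher or lower, and the median was 0.21. Tcf12 (0.39) and Tcf4 (0.37), which encode dimer partners of Tcf21, differed most, with 3 of 5 measured Tcf12 probe sets and all 5 of Tcf4 above 0.

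**Figure D3:**
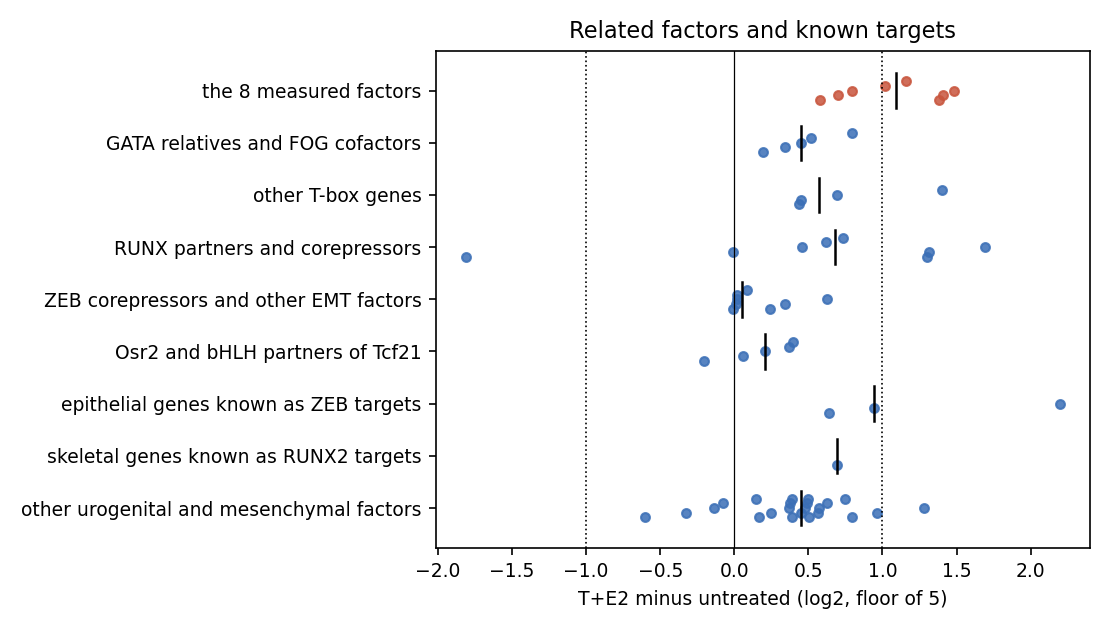
T+E2 minus untreated on the log2 scale with a floor of 5 (x axis) for the measured genes of each list (y axis), with a black bar at each list's median. The 8 measured factors (red) have a median of 1.09. The lists of related factors and of genes labelled as targets (blue) have medians from 0.05 to 0.94, the highest resting on 3 genes.

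A wider list of 39 urogenital and mesenchymal factors outside these families held 36 on the array and 23 measured, with a median of 0.45 and 19 above 0. At 2-fold or more, 1 was higher and 0 were lower. The higher gene was Foxf2, a forkhead factor of gut and genital mesenchyme, at 37.3 untreated and 90.6 with T+E2 (1.28). Hoxa10, Isl1 and Foxf1 were among the measured genes, whereas Hoxa13, Hoxd10, Hoxd13 and Hand2 lay below the floor on both arrays. Over all companion lists together, 53 of 83 genes on the array were measured, 5 were at least 2-fold higher and 1 was lower, with a median of 0.39. The difference of Gata6 was closest to those of Tbx20 (a gap of 0.08) and Tle3 (0.17) among these companions, a likeness that rests on 1 difference per gene from 2 arrays.

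**Figure D4:**
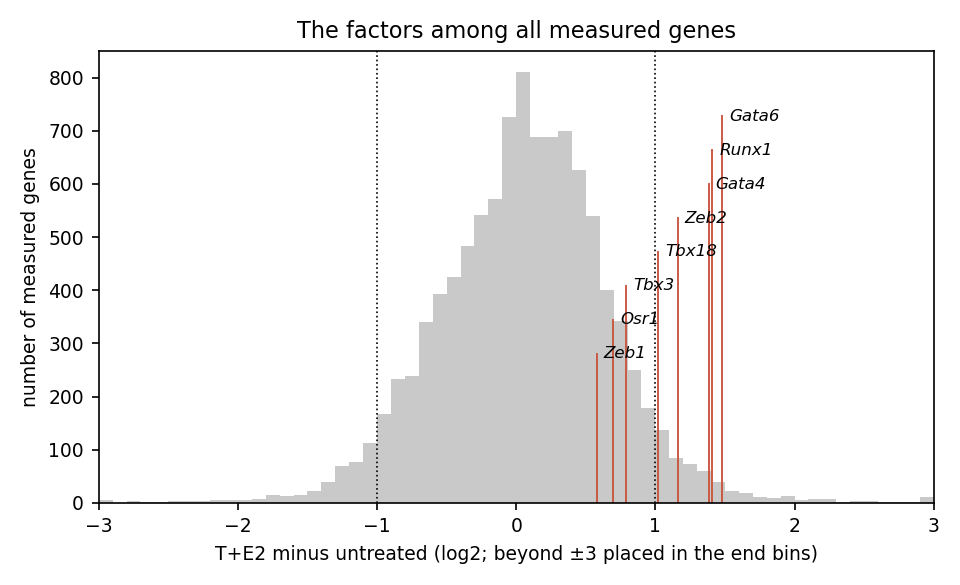
Number of measured genes (y axis) by T+E2 minus untreated on the log2 scale (x axis), with the 8 measured factors marked by red lines whose heights carry no value. The factors lie between 0.58 and 1.48, and the dotted lines mark 2-fold in each direction.

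The difference between the arrays grew with the genomic span of a gene, the length from its first to its last base, and the factors are spread over these spans. Among measured genes in the shortest of 5 equal groups by span the median difference was -0.19 and 2.05% were at least 2-fold higher, while in the longest group it was 0.46 and 13.2%. Gata4 (72.8 kb), Zeb2 (134 kb), Zeb1 (184 kb) and Runx1 (225 kb) lie in that longest group. Gata6 (33.1 kb) and Tbx18 (28.5 kb) lie in the middle group, and Tbx3 (14.2 kb) and Osr1 (7.06 kb) in shorter ones. With the trend removed by a local regression, Gata6 stood at 1.40 and Gata4 at 1.09, still past 2-fold. Each of these 2 rests on 1 probe set with an untreated value close to the floor, and both were under 2-fold with a floor of 6. With the trend removed, Tbx18 came to 0.98, Runx1 to 0.87 and Zeb2 to 0.72, all under 2-fold, and Zeb1 to 0.08. Osr1 (0.85) and Tbx3 (0.87) were farther from 0 than without that step. By that measure 2 of the 8 were at least 2-fold higher, where 2.97% of all measured genes were. What set the trend with span was not tested.

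**Figure D5:**
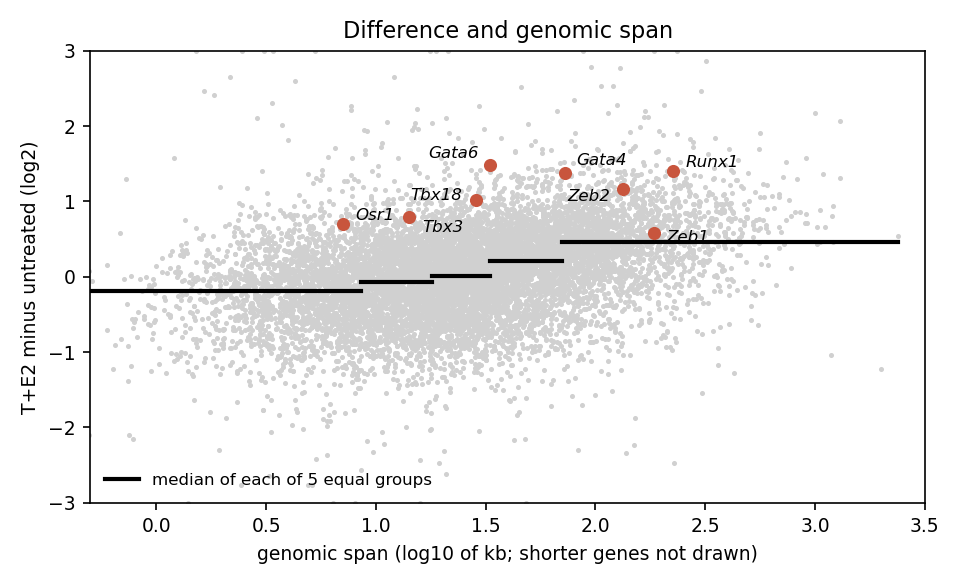
T+E2 minus untreated on the log2 scale (y axis) against genomic span in kb on a log10 scale (x axis), with each measured gene in grey, the 8 measured factors in red and the median of each of the 5 equal groups of genes by span as a black bar. The medians run from -0.19 in the shortest group to 0.46 in the longest, and the factors lie above the bar of their own group.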

How the data were processed

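Total RNA of 2 cultures was hybridized to Affymetrix mouse arrays of 45101 probe sets, and the authors made the values with GCRMA (no version given), per the submitters' processing notes. The deposited linear intensities span 3.82 to 67555 (untreated) and 3.75 to 71889 (T+E2), with 42.9% and 42.1% of probe sets at 32 or more. GCRMA subtracts background by probe sequence and draws dim probe sets to a low value, so differences near the floor are the least certain. Here log2 was taken with no further scaling, with Python 3.11.15 and pandas 2.3.3, and values under 5 (log2) were set to 5 before a difference was formed. Where only 1 array reached the floor the fold is a bound, written "at least". The count of genes past 2-fold was tested on simulated data with untreated levels clear of the floor and planted changes well past 2-fold. That test does not cover factors near the floor or differences close to 2-fold.

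Probe sets were named from the platform annotation (34945 with 1 gene, 932 with several and left out, 64 controls and 9160 unlisted), with symbols updated through gene identifiers of RefSeq assembly GRCm38.p6, which held 18032 of 18193 genes. Probe brightness is not comparable between genes. The factors, gene lists, named-gene rule and alternatives were chosen with earlier results of these data known. The named genes are all 10 factors, with every probe set. From each list of companions or labelled targets they include the genes at least 2-fold different or, with none, the 2 farthest from 0. They also include the 2 companions nearest to the factor with the largest difference. Other list genes and all cell type markers were named after their values were seen. The 9 alternatives changed the floor, the probe set rule, the scaling, the pseudocount or the span trend (statsmodels 0.14.6), and 2 more, chosen after seeing the data, averaged probe sets after the floor.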

Additional observations from a re-analysis of the deposited data

How the results depend on the processing

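No paired analysis was possible because each group has 1 array, and for the same reason no replicate could be left out. The count of factors at least 2-fold higher, 5 of 8, was 5 with a floor of 4 or none, and 4 with the mean of measured probe sets, with centring and with quantile normalization. It came to 3 with a floor of 6 (median difference 0.83 in place of 1.09), 2 with 32 added to each intensity (0.95), 2 with the span trend removed (0.87) and 0 when all probe sets of a gene were averaged (0.61), where averaging with probe sets near background left 6 factors measured. With the floor set for each probe set before averaging, added after seeing the data, the count was 4 over measured probe sets and 0 over all (median 0.59). Over all measured genes the share at least 2-fold higher ran from 2.53% to 5.67% under the 11 alternatives. That share was 4.47% with a floor of 6, 3.56% with 32 added, 2.97% with the span trend removed and 3.35% with all probe sets averaged. The count of factors at least 2-fold lower was 0 under all 11 alternatives, where 2.82% to 5.10% of all measured genes were. Zeb1 stood at -0.24 when all its probe sets were averaged and -0.32 when the measured ones were, both through 1 level under the floor, and at 0.11 and 0.14 with the floor set first; the other 7 measured factors stayed above 0 wherever they were measured. Low signal limits Gata4, Gata6 and Osr1 most.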

Other observations

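Probe sets that oppose each other, as in Zeb1, occurred in other genes. Of the 27 genes with 1 measured probe set at least 2-fold higher and another at least 2-fold lower, Lpp spanned from -3.45 to 1.27 on the log2 scale and the transcription factor gene Maf from -3.41 to 1.30, the widest ranges of the 27. Tcf12, the dimer partner of Tcf21, also belonged to them, from -2.38 to 1.07, and Zeb1 ranked 22 by range, from -1.41 to 1.26. These genes were named after their values were seen, and no explanation was tested.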
